A study of Mus musculus with 6 samples.

Results

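The contactin and contactin-associated protein (Cntnap, or Caspr) genes examined here were 10 of the 32285 genes in the count matrices: Cntn1, Cntn3, Cntn4, Cntn5, Cntn6, Cntnap2, Cntnap4, Cntnap5a, Cntnap5b and Cntnap5c. Each was taken by its gene symbol, and all 10 were found in all 6 libraries. The family was chosen by an earlier measurement on these data, the UMIs of Cntnap2 in oligodendrocyte precursors of hypoxic against control mice, and its members were listed with their levels in neurons and glia known. Levels across cell classes, and the hypoxia comparison in oligodendrocyte precursors, are therefore given as description without a test.

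Contactins are adhesion proteins of the immunoglobulin superfamily that are tethered to the outer membrane by a lipid anchor. Cntnap proteins cross the membrane, resemble neurexins and bind contactins. On myelinated axons such pairs build the junctions beside the node of Ranvier: Cntn1 works with Cntnap1 where the myelin loops attach, and Cntnap2 with Cntn2 holds potassium channels in place under the myelin. Other family members are studied mainly in neurite growth and in the choice of synaptic partners.

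Nuclei came from the pons and medulla, the brainstem region with the circuits for breathing, of wild-type male C57BL6/J mice weaned at postnatal day 21. The chronic intermittent hypoxia (CIH) group was housed from postnatal day 22 to 43 under repeated cycles, in which nitrogen lowered oxygen to 4.5 to 5% over 60 seconds and air brought it back to 21% within 5 minutes. There were 80 cycles per day, spread over 8 hours, for 21 days, while the normoxia group breathed room air. Nuclei were stained with Hoechst, sorted and sequenced with droplet chemistry that counts unique molecular identifiers (UMIs), in 3 libraries per group. The labels do not give the number of mice behind a library, so p-values measure the spread between libraries, which may be technical.

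The libraries held 26733243 to 46754345 UMIs, and 37694 of 43836 barcodes were kept after the limits on genes, mitochondrial UMIs and doublets. CIH library 3 had a median mitochondrial share of 0.369%, against 0.0640 to 0.0971% in the other 5 libraries. CIH library 1 and normoxia library 2 shared 1563 barcodes, of which 1163 passed the limits in both, while the other pairs shared 2 to 31 such barcodes. At the shared barcodes the median was 7872 UMIs in CIH library 1 and 984 UMIs in normoxia library 2. The profiles at one barcode were alike, with 563 of 565 gated pairs in the same class. These barcodes carried 6.87% of the UMIs of normoxia library 2, and results that rest on these libraries are given with and without them. Leaving them out of both libraries also removes the deeper nuclei of CIH library 1. Libraries 1 and 2 of a group were also unusually alike: the chi-square per gene was 2.48 between CIH libraries 1 and 2 and 3.20 between normoxia libraries 1 and 2, against 16.8 to 62.9 for the other pairs. With libraries 1 and 2 of each group summed, leaving 2 libraries per group, 0 genes were called in each class tested.

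A nucleus was assigned to a class when at least 3 genes of that class's marker panel had a UMI and the detected fraction of the panel was at least 2 times that of every other panel. This gave 29001 nuclei. They included 12431 neurons outside the cerebellar granule gate (called brainstem neurons here, although other cerebellar neurons may be among them), of which 3070 were excitatory (a UMI of Slc17a6 or Slc17a7 and none of the inhibitory genes) and 2550 inhibitory (UMIs of at least 2 of Gad1, Gad2, Slc32a1 and Slc6a5, none of Slc17a6 or Slc17a7), and 2342 granule neurons, which belong to the cerebellum. The glia comprised 11445 oligodendrocytes, 1141 microglia, 657 astrocytes and 236 oligodendrocyte precursors, and there were 633 endothelial nuclei. Genes outside the panels bore out the names of astrocytes and oligodendrocyte precursors. In astrocytes Ntsr2, Slc6a11 and Gfap summed to 1203 to 1755 CPM (UMIs of a gene, scaled to the class total of its library), against 11.5 to 31.4 CPM in brainstem neurons. In oligodendrocyte precursors Olig1 and Gpr17 summed to 186 to 407 CPM, against 58.8 to 95.9 CPM in oligodendrocytes. For neurons the check was less clear. Slc12a5, Nefl, Nefm and Gabrb2 summed to 431 to 579 CPM in brainstem neurons, against 251 to 358 CPM in precursors. Nefl alone had a median of 40.8 CPM in brainstem neurons, against 48.4 CPM in astrocytes and 60.8 CPM in endothelial nuclei, while the medians of the others were higher in brainstem neurons than in those classes.

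All 10 members are very long genes. Their spans in GENCODE M21 on mm10 ran from 291 kb for Cntn1 to 2245 kb for Cntnap2, at or above the 97.3rd percentile of 21625 protein-coding genes. The positions were chr15:92051165-92341967 for Cntn1, chr6:102162655-102573101 for Cntn3, chr6:105677660-106699310 for Cntn4, chr9:9660891-10904775 for Cntn5 and chr6:104492790-104863406 for Cntn6. Cntn3, Cntn6 and Cntn4 thus lie in one stretch of chromosome 6. Cntnap2 was at chr6:45059357-47304213, Cntnap4 at chr8:112570043-112882717, Cntnap5a at chr1:115684756-116587323, Cntnap5b at chr1:99772765-100485942 and Cntnap5c at chr17:57769570-58410355. Annotated antisense genes overlap Cntn3, Cntn5 and Cntnap4, and how the authors' counting treated strand is not given in the sources used here.

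The paralogues Cntnap5a, Cntnap5b and Cntnap5c need care because their transcripts are close copies. Aligned coding sequences were 89.7 to 90.3% identical, and the pairs shared 57, 54 and 43 runs of 50 bases, against 0 for every other pair of members. The stretch of 90 coding bases printed here, from the GENCODE M21 transcripts on mm10, surrounds the longest run identical in all 3, of 56 bases, where a read shorter than the run could not be placed. Capitals mark bases that differ from Cntnap5a, at 1 position in Cntnap5b and 3 in Cntnap5c.
Cntnap5a: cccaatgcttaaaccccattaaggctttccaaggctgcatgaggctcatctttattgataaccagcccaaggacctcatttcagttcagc
Cntnap5b: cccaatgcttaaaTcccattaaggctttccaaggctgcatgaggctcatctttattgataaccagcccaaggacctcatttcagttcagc
Cntnap5c: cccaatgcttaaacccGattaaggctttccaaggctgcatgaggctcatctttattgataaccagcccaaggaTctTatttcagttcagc
Values of these paralogues carry that uncertainty for coding reads. Reads from their introns were not compared in this way.

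The members fell into unlike patterns across cell classes. Oligodendrocyte precursors, astrocytes and oligodendrocytes each carried certain contactins at or above the neuronal level, while the 5 Cntnap genes and Cntn5 were neuronal, with means of no more than 12.3% of the level of brainstem neurons in any of the 5 non-neuronal classes. Levels are CPM of UMIs summed per library over a class, given as mean ± SD over 6 libraries.

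Cntn1, the paranodal contactin, had its highest mean in oligodendrocyte precursors. There it had 1643, 2136 and 1703 CPM in CIH, against 1856, 1698 and 1759 CPM in normoxia, and astrocytes, the next of the non-neuronal classes, had 1212, 1454 and 1262 CPM in CIH, against 1162, 1441 and 1185 CPM in normoxia. Granule neurons held 730 ± 35.4 CPM and brainstem neurons 648 ± 12.6 CPM. The ranges of precursors and astrocytes did not overlap with each other, nor with those of granule, excitatory, inhibitory or all brainstem neurons. The few serotonergic neurons, with 1133 to 1818 CPM, overlapped with both. Oligodendrocytes had only 95.1 ± 15.3 CPM, so that within one lineage the precursors were high and the mature cells low. Relative to brainstem neurons of the same library, Cntn1 stood at 278% in precursors and 199% in astrocytes, and the ratio in astrocytes lay between 1.77 and 2.28 in all 6 libraries.

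Cntn3, studied in rat as a promoter of neurite outgrowth, had its highest mean in oligodendrocytes. Their level was 418, 408 and 449 CPM in CIH, against 382, 406 and 493 CPM in normoxia, while brainstem neurons averaged 354 ± 19.1 CPM. The oligodendrocyte level was 120% of that of neurons in the same library, with ratios of 1.08 to 1.29. Its range over libraries, 382 to 493 CPM, nevertheless overlapped with those of excitatory neurons (349 to 390 CPM) and all brainstem neurons (335 to 384 CPM). Oligodendrocyte precursors had 115 ± 39.8 CPM, and astrocytes 9.83 CPM. Without the shared barcodes in both libraries, the mean of Cntn3 in oligodendrocytes was 410 CPM, and that of Cntn1 was 1790 CPM in precursors and 1251 CPM in astrocytes.

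Cntn4 and Cntn6 were shared by neurons and oligodendrocyte precursors. Cntn4, which takes part in wiring of the mouse visual system, had 1318, 1123 and 1070 CPM in precursors of CIH libraries and 1103, 1001 and 1248 CPM in those of normoxia libraries, a range that overlapped with the 973 ± 75.9 CPM of brainstem neurons. Granule neurons were apart and lower, at 504 ± 35.2 CPM. Cntn6, described in cultured cells of the oligodendrocyte lineage as a Notch ligand, had 386 ± 56.8 CPM in precursors and 387 ± 21.5 CPM in brainstem neurons. Its highest level was in granule neurons, at 671 ± 160 CPM, and this exceeded brainstem neurons of the same library in all 6 (ratios of 1.12 to 2.19). Cntn4 and Cntn6 both stood at 61.0 CPM or less in the other glia and in endothelial nuclei.

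Cntn5 and the Cntnap genes were the neuronal group. Cntn5, another gene of mouse visual wiring, averaged 1802 ± 175 CPM in excitatory and 1610 ± 292 CPM in inhibitory neurons, which overlapped, and 591 ± 201 CPM in granule neurons. Cntnap2, the potassium-channel partner of Cntn2, was the member with most UMIs: granule neurons had 4684 ± 935 CPM and brainstem neurons 5506 ± 474 CPM, with overlapping ranges. Per kilobase of gene span, a scale that presumes that intronic reads were counted and grow with the span, which was not tested, Cntnap2 and Cntn1 had 2.45 and 2.23 CPM per kb in brainstem neurons. On that scale Cntn5 and Cntnap5a followed at 1.28 and 1.25 CPM per kb, and Cntnap5c was lowest at 0.384 CPM per kb.

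The Cntnap5 paralogues separated granule from brainstem neurons, while Cntnap4 did not. Cntnap5a had 344 ± 102 CPM in granule and 1124 ± 62.6 CPM in brainstem neurons. Cntnap5b had 148 CPM in granule and 425 ± 47.5 CPM in brainstem neurons, and Cntnap5c 83.6 ± 22.7 CPM in granule and 246 ± 41.7 CPM in brainstem neurons. Granule neurons thus stood at 30.4 to 34.5% of the brainstem level for these 3 genes. Cntnap4, which acts at interneuron synapses in mice, was at 373 ± 64.5 CPM in granule neurons against 289 ± 19.9 CPM in brainstem neurons, with overlapping ranges and same-library ratios of 0.996 to 1.52. Among the brainstem classes, Cntnap5c was higher in excitatory than in inhibitory neurons of every library, at 305 ± 44.9 against 200 ± 34.7 CPM (ratios of 1.27 to 1.81).

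**Figure D1:**
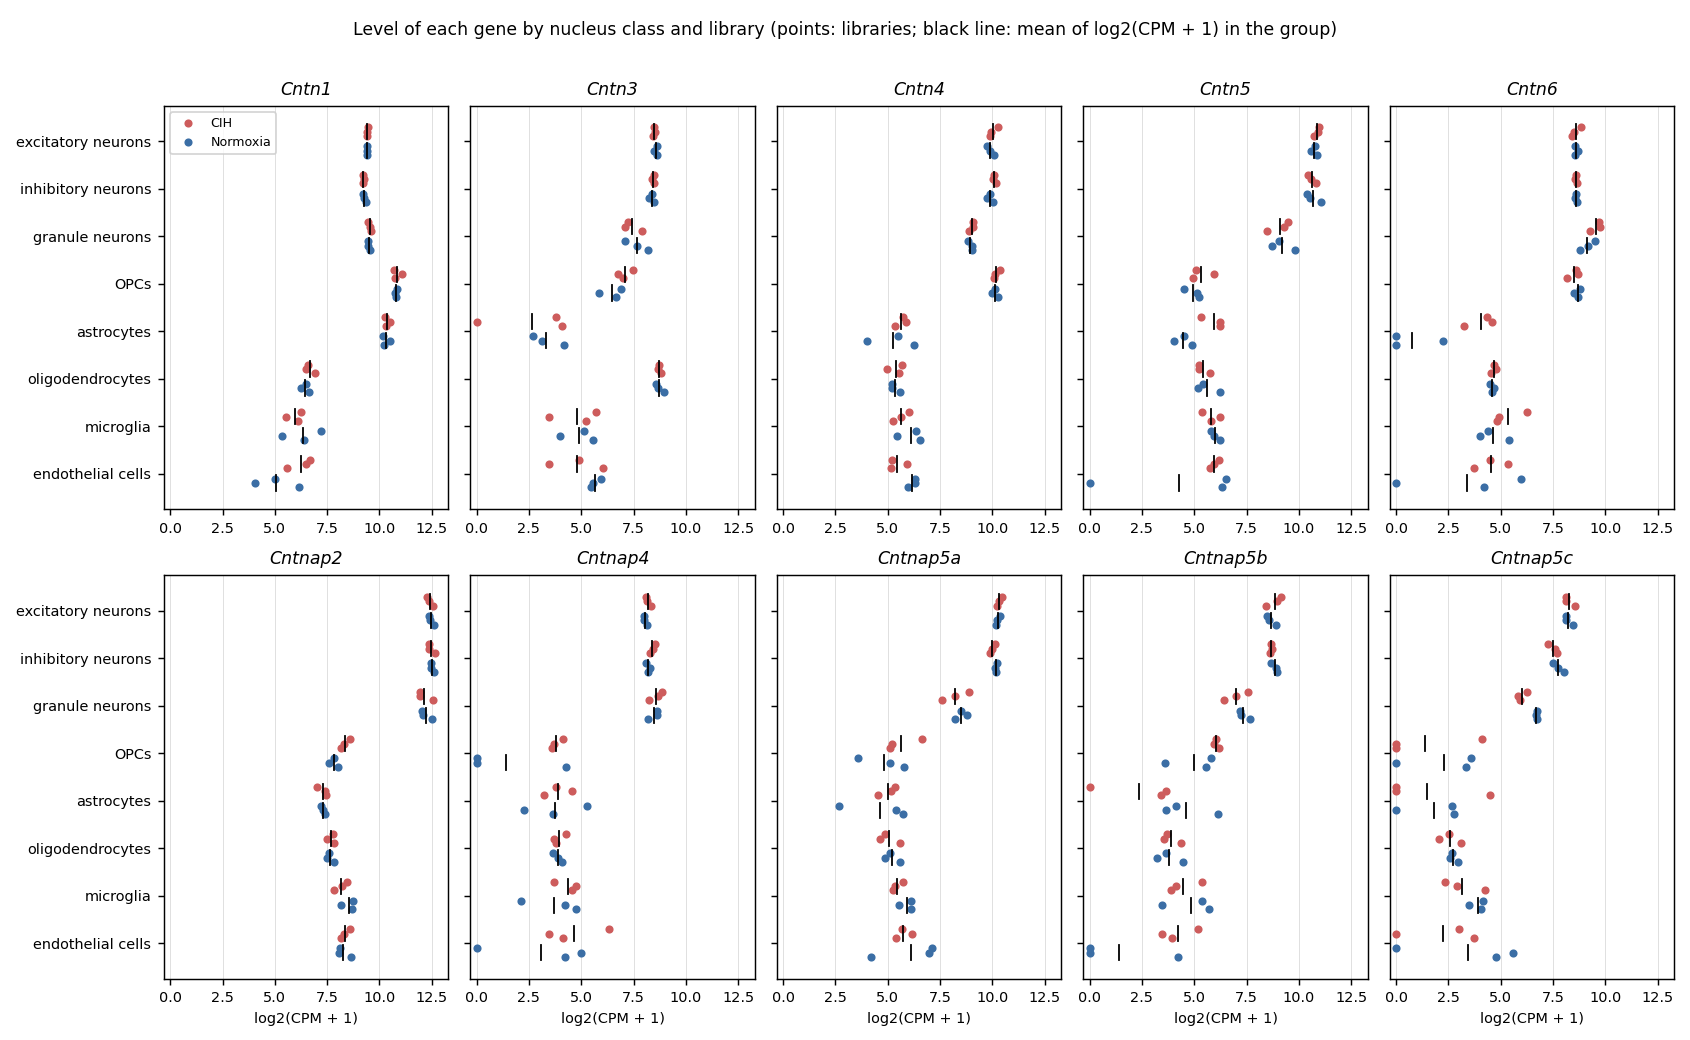
Level of each member, as log2(CPM + 1), in 8 cell classes, with 1 point per library (CIH and normoxia marked separately). Cntn1 peaks in oligodendrocyte precursors and astrocytes, Cntn3 reaches the neuronal level in oligodendrocytes, and the Cntnap genes and Cntn5 drop from neurons to every non-neuronal class.

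Because droplets can carry free RNA from neurons, each member's level in glia was set beside 6 neuronal genes that were not used to gate glia (Slc12a5, Nefl, Nefm, Gabrb2, Slc17a6 and Gad2). Cntnap2 in oligodendrocyte precursors was 5.10% of the neuronal level, against 5.24% for Gad2, the lowest of the 6, and 88.7% for Gabrb2, the highest, the 6 together being at 48.8%. The high level of Gabrb2 was particular to precursors, since it was at 11.8% in astrocytes, 6.06% in oligodendrocytes, 7.89% in microglia and 8.50% in endothelial nuclei. With a median of 209 CPM in precursors, Gabrb2 made up a large part of the value for the 6 together there. In astrocytes Cntnap2 was at 2.85%, against 11.3 to 98.4% for the 6, and in oligodendrocytes at 3.70%, against 6.06 to 82.3%. By its mean, Cntnap2 was thus below each of these 6 neuronal genes in each of the 5 non-neuronal classes, and it was at 6.07% in microglia. Over libraries, however, Cntnap2 in precursors, with 3.59 to 7.66%, overlapped with Gad2, with 0 to 15.8%. Its range also overlapped with that of some of these genes in astrocytes, microglia and endothelial nuclei. Microglia held all 10 members at 3.74 to 11.9% of the neuronal level and endothelial nuclei at 2.91 to 11.8%.

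Besides Cntn1, Cntn4 stood at 117% and Cntn6 at 99.6% of the neuronal level in oligodendrocyte precursors, and Cntn3 at 32.4%. The means of Cntn1, Cntn4 and Cntn6 were above that of each of the 6 neuronal genes there. Over libraries, however, Cntn4, with 107 to 124%, and Cntn6, with 77.0 to 120%, overlapped with Gabrb2, with 66.0 to 116%. Cntn3 was below Nefl and Nefm. The other 6 members were at 2.23 to 12.3% in precursors. In astrocytes the 9 members other than Cntn1 were at 1.87 to 5.75%, and in oligodendrocytes the 9 other than Cntn3 at 2.17 to 14.7%. Cntn1 in astrocytes, at 177 to 228% over libraries, was above Nefl, at 14.2 to 145%, while Cntn3 in oligodendrocytes, at 108 to 129%, overlapped with Nefl, at 61.7 to 120%. The part of neuronal RNA in these values was not tested.

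**Figure D2:**
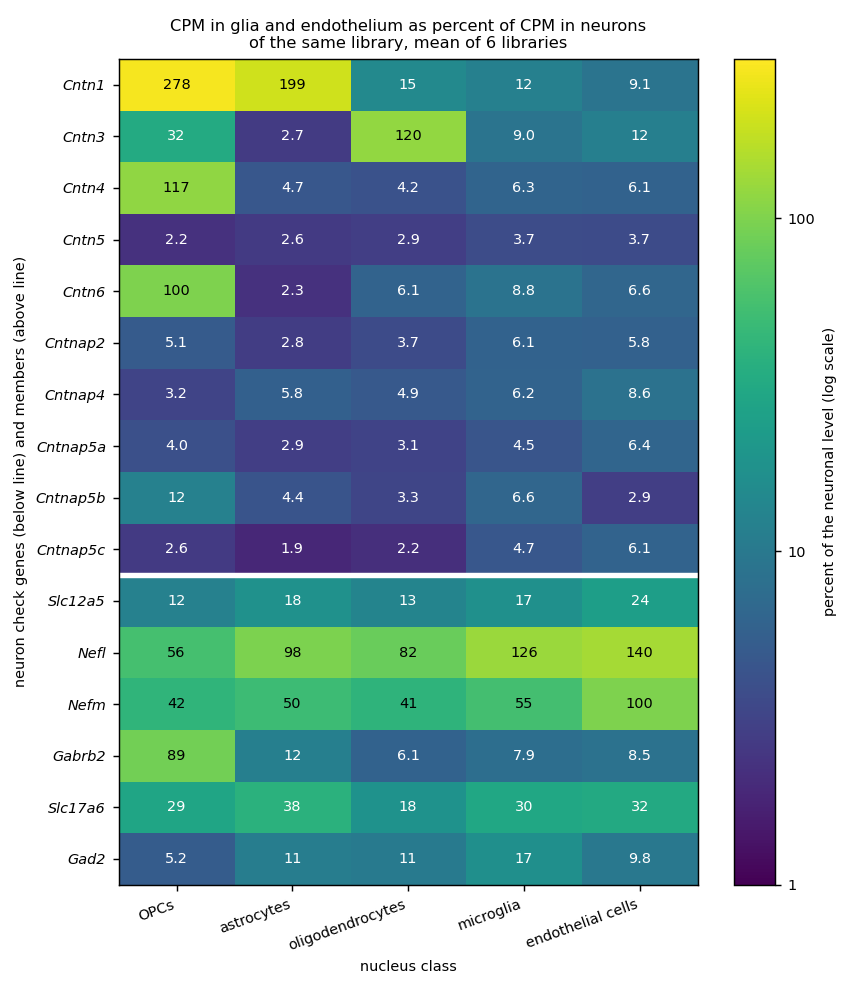
Level in 5 non-neuronal classes as a percentage of the level in brainstem neurons of the same library, for the 10 members and, below the line, 6 neuronal genes not used for gating. Cntn1 (278%), Cntn4 (117%) and Cntn6 (99.6%) in oligodendrocyte precursors, Cntn1 in astrocytes (199%) and Cntn3 in oligodendrocytes (120%) stand out, while Cntnap2 stays between 2.85 and 6.07%.

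Some glia had no UMI of any gene of the neuron panel. In 2908 such oligodendrocytes Cntn3 was at 416 ± 36.04 CPM (SD over 6 libraries), against 429 ± 44.5 CPM in the 8537 others from the same libraries, and this difference was not tested. Cntnap2 in oligodendrocytes was at 178 ± 15.2 CPM without a neuron panel gene and 210.3 ± 27.3 CPM with one, lower in 6 of 6 libraries. The 101 astrocytes without a neuron panel gene, as few as 3 in a library, had Cntn1 at 1042 ± 527 CPM, with libraries from 245 to 1640 CPM, against 1296 ± 121 CPM in the 556 others. Pooled over libraries these astrocytes had 1393 CPM (95% exact Poisson interval 1239 to 1561, counting error only), against 1270 CPM (1217 to 1325), so that the pooled value and the mean over libraries differ in direction. Cntnap2 in them was at 111 ± 70.0 CPM, against 162 ± 16.6 CPM. Only 21 precursors had no neuron panel gene, and there Cntn1 was between 0 and 1695 CPM over libraries, and at 1314 CPM (951 to 1770) when pooled. This division was made after the data were seen.

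Shares of nuclei with a UMI were compared after thinning each nucleus to 1000 UMIs, which left out 603 of the 12431 brainstem neurons for want of depth, 18 of 236 precursors, 44 of 657 astrocytes, 624 of 11445 oligodendrocytes and 238 of 1141 microglia. Cntn1 was then found in a median of 79.4% of oligodendrocyte precursors (92.2% before thinning) and 63.4% of astrocytes (85.3%), against 5.36% of microglia (9.22%). Cntn3 was found in 23.8% of oligodendrocytes (38.2%), against 1.40% of microglia (3.99%). Cntnap2 was found in 92.7% of brainstem neurons (97.3%) but also in 27.8% of microglia (37.1%), where the source of its UMIs was not tested. After thinning, the shares of precursors, 19.3% (39.4%), astrocytes, 14.5% (34.6%), and oligodendrocytes, 18.0% (37.7%), were below that of microglia. Before thinning, those of precursors and oligodendrocytes were slightly above it. At this depth a brainstem neuron had UMIs of 3.43 to 4.04 members on average over the 6 libraries, and an oligodendrocyte of 0.62 to 0.71.

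Neurons were also divided by the Hox genes, transcription factors that mark position along the hindbrain and spinal cord. Of the brainstem neurons, 4663 had a UMI of at least 1 of 39 Hox genes. Cntn5 had 1378 ± 102 CPM in these and 1805 ± 174 CPM in the 7768 without, a ratio of 0.734 to 0.796 in each of 6 libraries. The order was the same in excitatory neurons, with 1513 against 2075 CPM, and in inhibitory neurons, with 1387 against 1892 CPM. Cntnap5a went the other way in all brainstem neurons, at 1202 CPM with a Hox UMI and 1046 CPM without, higher in 6 of 6 libraries. It was higher in 5 of 6 libraries in the excitatory class (1333 against 1142 CPM) and in 4 of 6 in the inhibitory class (1097 against 1084 CPM). Cntnap5b was lower with a Hox UMI in all brainstem neurons (402 against 442 CPM) and in the excitatory class (395 against 470 CPM), each in 6 of 6 libraries. In the inhibitory class Cntnap5b was lower in 5 of 6 libraries (405 against 464 CPM). In the excitatory class Cntnap4 was lower with a Hox UMI (250 against 315 CPM), and in the inhibitory class Cntnap5c was lower (174 against 229 CPM), each in 6 of 6 libraries. In the excitatory class Cntnap5c was instead higher with a Hox UMI (354 against 269 CPM, 5 of 6 libraries), as it was in all brainstem neurons (256 against 234 CPM, 5 of 6 libraries). Neurons with a Hox UMI were also sequenced more deeply, with a mean of 8612 against 5063 UMIs, and the 6 neuronal genes summed to 566 against 743 CPM. The part of depth in these differences was not tested, and the division was made after the data were seen.

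**Figure D3:**
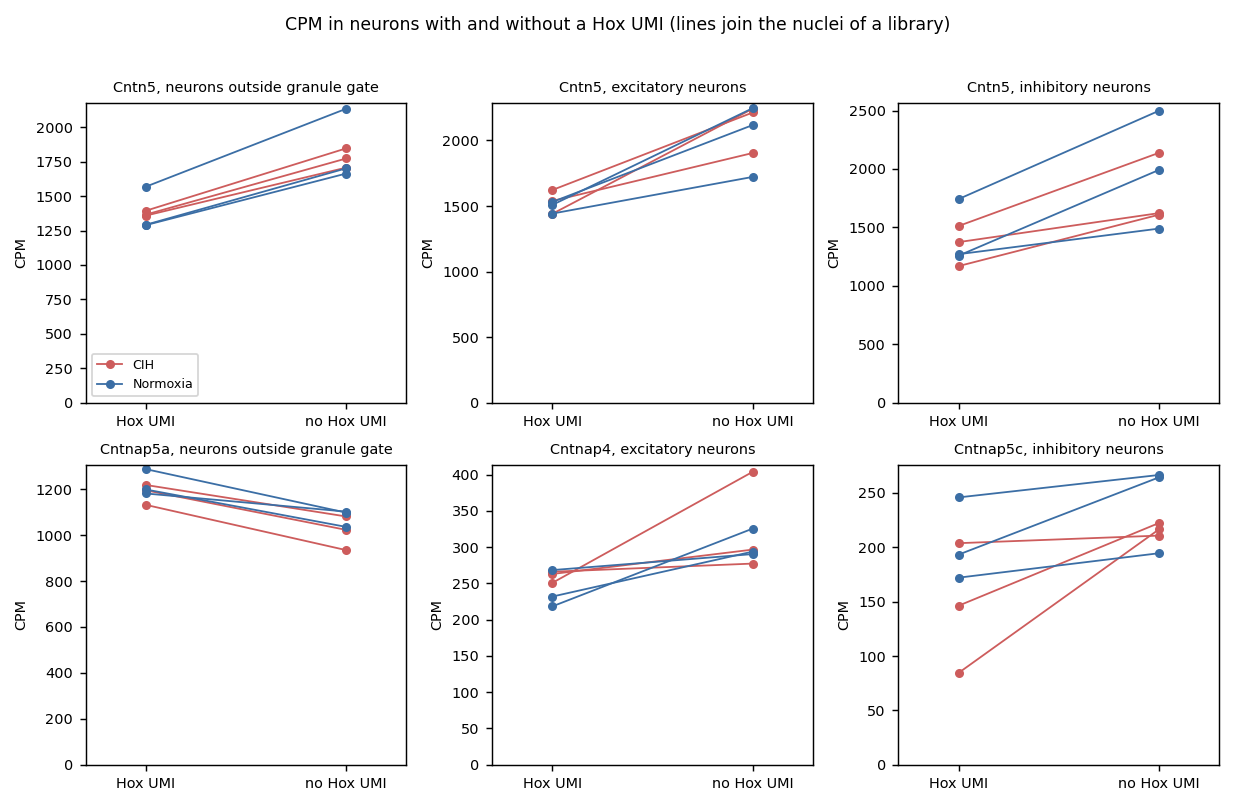
CPM of selected members in neurons with and without a UMI of a Hox gene, with a line for each of the 6 libraries. Cntn5 is lower with a Hox UMI in all brainstem, excitatory and inhibitory neurons (1378 against 1805 CPM in all brainstem neurons), and Cntnap5a is higher in all brainstem neurons (1202 against 1046 CPM).

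Genes with the pattern most like each member were sought over the mean log2(CPM + 1) of 11 partly overlapping classes among 7091 genes. The correlations only describe, since classes share libraries and nuclei. Cntn1 was most like Nrcam (Pearson r = 0.986), and next Lsamp, both genes of adhesion molecules. Cntn3 was most like Reps2 (r = 0.983), Elavl3 and Mfsd6, and Cntn4 like Lrrtm4 (r = 0.998), Syt16 and Khdrbs2. Cntn5 was most like Unc5d (r = 0.999), Epha6 and Snhg11, the last a gene of the neuron panel, and Cntn6 like Galnt13 (r = 0.991), Tmem145 and Rims1. For Cntnap2 the genes were Elmod1 (r = 0.999), Necab1 and Snhg14, for Cntnap4 Mtus2 (r = 0.998), Clvs1 and Slc12a5, and for Cntnap5b Vwa5b2 (r = 0.996), Chrm2 and Ogfod1. Cntnap5a and Cntnap5c shared Zfp804b as the most alike gene and each had the other among its 3, with r = 0.996, beside Meg3 for Cntnap5a and Epha6 for Cntnap5c. Within the family Cntn1 stood apart, with r of 0.135 to 0.666 to the other 9.

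The effect of CIH on the members was then tested in 6 classes, by edgeR's quasi-likelihood test on UMIs summed per library with Benjamini-Hochberg adjustment over all genes tested in the class. No member passed an adjusted p of 0.05 in brainstem, excitatory, inhibitory or granule neurons, astrocytes or oligodendrocytes. DESeq2 also called 0 members. At an unadjusted p under 0.05 there was 1 member in brainstem neurons, beside 9.5% of all genes tested there. There were 0 in excitatory neurons (9.28% of genes), 2 in inhibitory neurons (6.63%), 2 in granule neurons (3.98%), 0 in astrocytes (5.5%) and 0 in oligodendrocytes (5.58%). Over the members tested, the median log2 fold change was between -0.07 in granule neurons and 0.05 in astrocytes, and over all genes tested between 0.00 and 0.02. The largest of the tested fold changes were a lower Cntnap5c and a higher Cntn6 in granule neurons, neither past the threshold.

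In brainstem neurons all 10 members were tested, and 0 of 16847 genes (0%) passed in edgeR, 1600 had an unadjusted p below 0.05 and DESeq2 passed 130. Cntnap4 had 308, 303 and 306 CPM in CIH, against 262, 272 and 280 CPM in normoxia. All CIH libraries were above all normoxia libraries, and the log2 fold change was 0.16 (SE 0.06, edgeR adjusted p = 0.469). Cntnap5a had 1130, 1088 and 1031 CPM in CIH, against 1220, 1138 and 1139 CPM in normoxia, with a log2 fold change of -0.12 (SE 0.06, edgeR adjusted p = 0.571). Its CIH libraries were all below those of normoxia. Non-overlapping groups were found for these 2 of 10 members and for 15% of all genes tested. Cntnap2, at 5097, 5175 and 6157 CPM in CIH, against 5225, 5318 and 6063 CPM in normoxia, overlapped, as did Cntn5 with 1583, 1675 and 1575 against 1424, 1445 and 1871 CPM. The 8 members with overlapping groups had log2 fold changes between -0.09 for Cntnap5c and 0.10 for Cntn4. With the shared barcodes left out of both libraries, Cntnap4 stayed at 0.16, whereas Cntnap5a had -0.39 (SE 0.23, edgeR adjusted p = 0.660).

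Inhibitory neurons are a subset of the brainstem neurons, so their values are not independent of those. In them 1 of 13578 genes was called (0.00736%; Sox2ot, higher in CIH), and by DESeq2 6. Cntnap5a had 1104, 1007 and 959 CPM in CIH, against 1174, 1127 and 1156 CPM in normoxia, with no overlap and a log2 fold change of -0.18 (SE 0.08, edgeR adjusted p = 0.721). Cntn4 had 1091, 1045 and 1144 CPM in CIH, against 955, 844 and 1035 CPM in normoxia, again with no overlap, and a log2 fold change of 0.20 (SE 0.10, edgeR adjusted p = 0.762). These 2 of 10 compare with 11.7% of all genes tested. Cntnap4 was at 364, 341 and 307 CPM in CIH, against 276, 308 and 286 CPM in normoxia, overlapping by 1 library (log2 fold change 0.21, SE 0.08, edgeR adjusted p = 0.676). Without the shared barcodes in both libraries the log2 fold change of Cntn4 was 0.10 and that of Cntnap5a -0.43.

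In excitatory neurons 7 of 13667 genes were called (0.0512%), none of them a member, and by DESeq2 57. The groups overlapped for all 10 members, against no overlap for 13.9% of all genes tested. Log2 fold changes ran from -0.08 to 0.19, the upper end being Cntnap5b with 566, 502 and 338 CPM in CIH, against 357, 385 and 472 CPM in normoxia. Its log2 fold change was -0.17 with the shared barcodes left out of both libraries, and 0.03 to 0.36 with 1 library left out. Whether excitatory and inhibitory neurons differed in effect was tested with limma on the difference between the classes of one library. No member passed, and 0 of 13227 genes did (0%). For Cntnap5a the difference was 0.25 on the log2 scale (SE 0.11, limma adjusted p = 0.801).

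Granule neurons gave the lowest fold change of a member. Cntnap5c had 75.1, 55.7 and 60.5 CPM in CIH, against 105, 101 and 105 CPM in normoxia, resting on 45 to 193 UMIs per library. The groups did not overlap for this 1 of 10 members and for 10.3% of all genes tested, and the log2 fold change was -0.69 (SE 0.14, edgeR adjusted p = 0.677). Cntn6, the member with its highest level in these cells, had 827, 854 and 620 CPM in CIH, against 715, 571 and 437 CPM in normoxia. CIH library 3 lay within the normoxia range (log2 fold change 0.43, SE 0.17, edgeR adjusted p = 1.00). Here 0 of 9795 genes (0%) passed in edgeR, 390 had an unadjusted p below 0.05 and DESeq2 passed 3. Cntnap5c was called when no filter on low counts was used (log2 fold change -0.66, edgeR adjusted p = 0.0477). That run called 60 genes in granule neurons, against 0 with the filter. Under the other alternatives the adjusted p of Cntnap5c reached up to 1.00. Leaving the shared barcodes out of both libraries gave -1.25 for Cntnap5c (SE 0.46, edgeR adjusted p = 0.854) and 0.54 for Cntn6. Granule neurons numbered 609, 731 and 236 per CIH library, against 236, 315 and 215 per normoxia library.

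**Figure D4:**
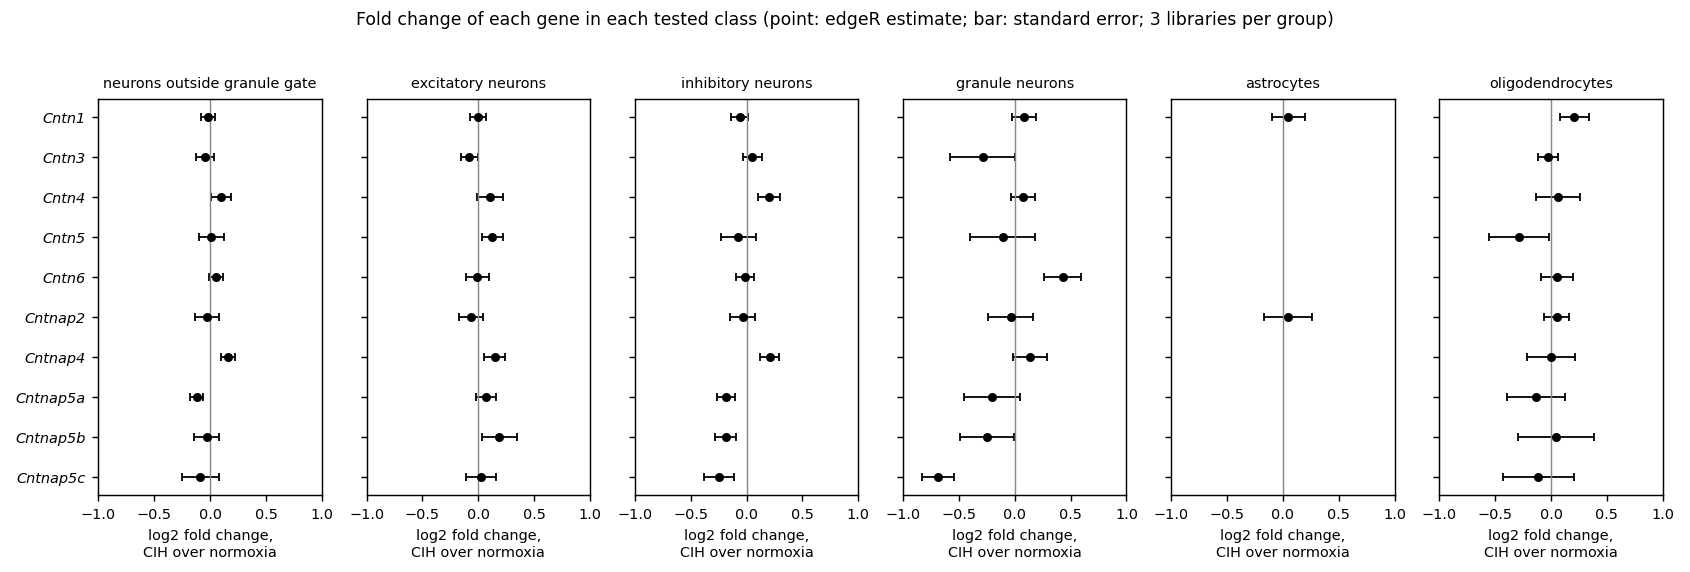
Log2 fold change of each member, CIH over normoxia, with its standard error from edgeR, in the 6 classes tested (only Cntn1 and Cntnap2 in astrocytes). No member passed the threshold, and the values run from -0.69 for Cntnap5c to 0.43 for Cntn6, both in granule neurons.

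In glia the contactins that stood out by class did not separate the groups. Astrocytes had enough UMIs for Cntn1 and Cntnap2 alone among the 10, and 0 of 3419 genes (0%) passed in edgeR, 188 had an unadjusted p below 0.05 and DESeq2 passed 0. Astrocyte Cntn1, with the per-library values given above, averaged 1309 ± 128 CPM in CIH, against 1263 ± 154 CPM in normoxia (SD, n = 3 each; log2 fold change 0.05, SE 0.15, edgeR adjusted p = 0.991). Cntnap2 had 130, 170 and 171 CPM in CIH, against 147, 155 and 165 CPM in normoxia. Groups thus overlapped for both, while they did not for 11.3% of all genes tested. The effect on Cntn1 in astrocytes did not differ detectably from that in brainstem neurons (difference 0.09 on the log2 scale, SE 0.24, limma adjusted p = 0.974), where 1 of 3387 genes was called (0.0295%).

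Oligodendrocyte Cntn3 averaged 425 ± 21.4 CPM in CIH, against 427 ± 58.3 CPM in normoxia (SD, n = 3 each), with a log2 fold change of -0.03 (edgeR adjusted p = 0.982). Cntn1 in these cells had 96.2, 90.1 and 121 CPM in CIH, against 88.1, 75.4 and 99.6 CPM in normoxia (log2 fold change 0.21, SE 0.13, edgeR adjusted p = 0.899). Both overlapped, as did the other 8 members, against no overlap for 11.9% of all genes tested. Of 13194 genes, 1 was called (0.00758%; Hif3a, a hypoxia-inducible factor gene, higher in CIH), and 21 by DESeq2. In this class same-numbered libraries deviated together, but so did CIH library 1 with normoxia library 2 and CIH library 2 with normoxia library 1. With the replicate number as a block 69 genes were called, and 0 of the members. Without the shared barcodes in both libraries the values were -0.14 for Cntn3 and 0.18 for Cntn1.

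**Figure D5:**
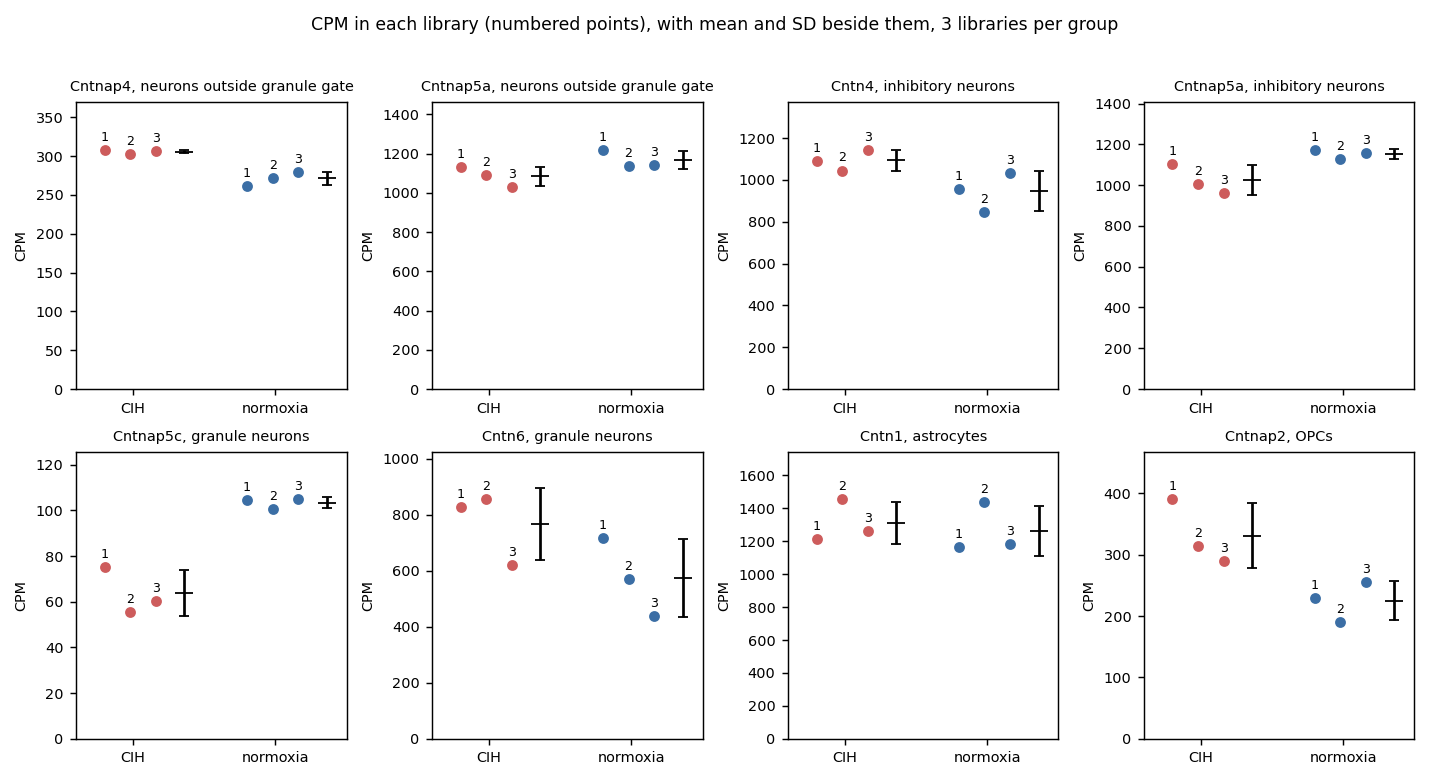
CPM per library, CIH left and normoxia right, for the members and classes on which the comparison turns. Groups do not overlap for Cntnap4 and Cntnap5a in brainstem neurons, Cntn4 and Cntnap5a in inhibitory neurons, Cntnap5c in granule neurons and Cntnap2 in oligodendrocyte precursors, and overlap for Cntn6 in granule neurons and Cntn1 in astrocytes.

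Oligodendrocyte precursors were too few for a test, with 21, 17 and 93 nuclei per CIH library, against 24, 30 and 51 per normoxia library. Cntnap2, through which the list was chosen, had 390, 314 and 290 CPM in CIH, against 229, 191 and 255 CPM in normoxia. These values rested on 24, 26 and 77 UMIs in CIH, against 21, 17 and 28 in normoxia. All CIH libraries were above all normoxia libraries, as were 4.86% of the 5720 genes with at least 20 UMIs. As a share of brainstem neurons of the same library, Cntnap2 was 7.66, 6.06 and 4.71% in CIH, against 4.39, 3.59 and 4.21% in normoxia. The order held without the shared barcodes, at 362, 314 and 290 CPM in CIH, against 229, 187 and 255 CPM in normoxia. It was lost under a looser gate, which asked for fewer panel genes and a smaller margin and held 35 to 172 nuclei per library, with 568, 426 and 485 CPM in CIH, against 237, 436 and 1168 CPM in normoxia. A stricter gate, which allowed at most 1 neuron panel gene in glia, left 2 to 18 nuclei per library and also lost the order, with 882, 0 and 191 CPM in CIH, against 144, 304 and 250 CPM in normoxia.

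Of the other members in precursors, Cntnap5b alone did not overlap, with 65.1, 60.4 and 71.6 CPM in CIH, against 54.6, 11.2 and 45.6 CPM in normoxia from 1 to 19 UMIs per library. Cntn1 and Cntn4, with the per-library values given above, overlapped, as did Cntn6 with 390, 410 and 286 CPM in CIH, against 448, 360 and 419 CPM in normoxia. Cntn3, too, overlapped, with 179, 109 and 124 CPM in CIH, against 120, 56.2 and 100 CPM in normoxia. The 6 neuronal genes summed in precursors to 358, 290 and 373 CPM in CIH, against 284, 304 and 319 CPM in normoxia, which overlapped (340 ± 44.4 against 302 ± 17.6 CPM, SD, n = 3 each; exact permutation p = 0.3, two-sided, the smallest possible being 0.1). Gabrb2, with a median of 209 CPM in precursors, made up a large part of these sums. In astrocytes the sums were 199 ± 55.7 CPM in CIH, against 155 ± 68.1 CPM in normoxia (exact permutation p = 0.5). Oligodendrocytes had 148 ± 103 CPM in CIH, against 111 ± 22.1 CPM in normoxia (exact permutation p = 0.8), and microglia 191 ± 77.2 CPM in CIH, against 171 ± 39.8 CPM in normoxia (exact permutation p = 0.7). The groups overlapped in each of these 4 classes. Because of Gabrb2, the sum in precursors cannot give the part of neuronal RNA in their Cntnap2 values, which was not tested.

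A list of 18 partner genes held known binding partners of the family, such as Nfasc, Nrcam and Ptprz1, and proteins of the same axonal junctions, such as Kcna1 and Kcna2. Of these, 17 were tested in brainstem, excitatory and inhibitory neurons and in oligodendrocytes, 16 in granule neurons and 10 in astrocytes, and edgeR called 0 in each. Nrcam, an adhesion gene, had 373, 368 and 345 CPM in CIH, against 394, 410 and 373 CPM in normoxia in brainstem neurons, the smallest p there (log2 fold change -0.13, edgeR adjusted p = 0.513). Kcna1, a potassium channel of the juxtaparanode, had the smallest p in excitatory neurons, with 132, 128 and 139 CPM in CIH, against 171, 171 and 142 CPM in normoxia, which did not overlap (-0.29, edgeR adjusted p = 0.385). Cntnap1, Ank3 and Ptprg did not overlap there either, nor did 13.9% of all genes tested. Kcna1 in brainstem neurons had a log2 fold change of -0.16, and Nrcam in excitatory neurons -0.26. In astrocytes Nfasc, which binds the Cntn1 complex at paranodes, had 228, 267 and 352 CPM in CIH, against 404, 493 and 399 CPM in normoxia, also without overlap (-0.56, SE 0.19, edgeR adjusted p = 0.639). Groups did not overlap for 11.3% of all genes tested in astrocytes. For the other classes the genes of smallest p were Ptprz1 (0.26) and Nfasc (-0.17) in inhibitory neurons, Ptprb (-0.57) and Nrcam (0.25) in granule neurons, and Notch1 (0.90) and Kcna2 (0.38) in oligodendrocytes, all log2 fold changes, while Nrcam was at 0.09 in astrocytes. The largest of these rest on low levels. Notch1 in oligodendrocytes averaged 3.41 CPM in CIH, against 1.73 CPM in normoxia (edgeR adjusted p = 0.879), and Ptprb in granule neurons 9.53 against 14.3 CPM.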

How the data were processed

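The authors deposited raw UMI counts per gene and barcode, made with Cell Ranger on the mm10 genome. Per the file headers this was version 6.1.2, while the submitters' processing notes give 3.1.0 and list Seurat 4.0. Whether intronic reads were counted is not given in the sources used here.

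The members, gene lists and gates were chosen with earlier results of these data known. Barcodes with fewer than 500 detected genes or more than 5% mitochondrial UMIs were dropped, and the nuclei with the highest Scrublet scores (scanpy 1.11.5), 0.8% per 1000 nuclei of a library, were removed as doublets. Classes were gated on marker panels. UMIs were summed per library and class and tested with edgeR 4.0.16 (R 4.3.3; TMM, filterByExpr, quasi-likelihood F test, Benjamini-Hochberg, threshold 0.05) where every library had at least 20 nuclei. DESeq2 1.42.0 was an alternative, and limma 3.58.1 tested differences between classes. Neuronal RNA sums were compared by an exact permutation test. The procedures were tested on simulated data. Python 3.11.15 was used with matplotlib 3.10.9, scipy 1.17.1, pandas 2.3.3 and numpy 2.4.6.

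All 10 members were named, plus partner genes past the threshold and the 2 of smallest p per class, and the 3 genes most alike each member. A few genes of the lists are not reported here and were removed from the list counts and sums after the data were seen. Other called genes were named where at most 5 were called. Alternatives were DESeq2, RLE size factors, testing without a low-count filter, the replicate number as a block, omission of each library in turn, stricter and looser gates, stricter quality limits and doublets kept. Leaving out shared barcodes, summing libraries 1 and 2 of each group, and splitting glia and neurons by panel or Hox genes were added after the data were seen. In oligodendrocytes the deviations of same-numbered libraries correlated at 0.154, 0.224 and 0.447, all over 0.1, so the rule for pairing by number was met there. In the other 5 classes not all were over 0.1. CIH library 1 with normoxia library 2, at 0.182, and CIH library 2 with normoxia library 1, at 0.190, correlated about as well in oligodendrocytes. The correlations thus do not show that the libraries were paired by number. Intervals cover counting error only.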

Additional observations from a re-analysis of the deposited data

Results flagged for a closer look

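Of the results tested for a difference in effect between 2 classes, 1 gene passed, and it is not a member: Kcnj16, an inward-rectifier potassium channel gene. Its log2 fold change in astrocytes minus that in brainstem neurons was -2.13 (SE 0.24, limma adjusted p = 0.0146). In astrocytes Kcnj16 had 32.6, 51.1 and 50.7 CPM in CIH, against 131, 75.8 and 131 CPM in normoxia (log2 fold change -1.21, edgeR adjusted p = 0.386). In brainstem neurons it had 1.09, 1.38 and 2.12 CPM in CIH, against 0.912, 0.586 and 0.785 CPM in normoxia (log2 fold change 1.04, edgeR adjusted p = 0.417). Neither class passed by itself, and 0 genes were called for this difference when any 1 library was left out or with the replicate number as a block. The gene was named because it was the only one called.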

How the results depend on the processing

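In each of the 6 classes tested, no member was called under any alternative but 1: Cntnap5c in granule neurons was called when no filter on low counts was used (log2 fold change -0.66, edgeR adjusted p = 0.0477). Dropping the filter raised the count of genes called in granule neurons from 0 to 60. Of 52 member results, 15 kept their sign in every alternative and 37 changed it in at least 1, 13 of them when the shared barcodes were left out of both libraries and 18 without normoxia 3.

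The counts of called genes moved far more. DESeq2 called 130 genes in brainstem, 57 in excitatory, 6 in inhibitory and 3 in granule neurons and 21 in oligodendrocytes. With no filter the counts were 102, 321, 146 and 60 in those neuron classes, 10 in astrocytes and 45 in oligodendrocytes. With the replicate number as a block they were 26, 19, 9 and 2 in those neuron classes, 7 in astrocytes and 69 in oligodendrocytes, with 0 members among them, and the difference between astrocytes and brainstem neurons gave 0 genes. The pairing rule was met in oligodendrocytes alone. A strict gate gave 5 genes in brainstem neurons, 15 in excitatory neurons and 2 in oligodendrocytes, and a loose gate 2 in excitatory neurons. Stricter quality limits gave 4 in excitatory neurons and 0 in oligodendrocytes. Without the shared barcodes in both libraries, or with libraries 1 and 2 summed, there were 0 in excitatory and 0 in inhibitory neurons, and summing also gave 0 in oligodendrocytes.

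Leaving out 1 library gave 0 to 203 genes in brainstem neurons (203 without CIH 3, 16 without normoxia 3), 0 to 211 in excitatory neurons (211 without CIH 3, 48 without normoxia 3), 0 to 10 in inhibitory neurons, 0 to 2 in granule neurons, 0 to 3 in astrocytes, 0 to 10 in oligodendrocytes and 0 to 0 for the difference between astrocytes and brainstem neurons. The cause was not tested. The CIH minus normoxia difference in summed neuronal genes in microglia was 20.6 CPM, and -20.8 to 55.7 with 1 library left out. In oligodendrocytes it was 37.0 CPM, and -22.0 to 74.0 with 1 library left out. In both classes the lowest value, and the only one below 0, came without CIH 3. In astrocytes it was 43.7 CPM, and 7.05 (without normoxia 1) to 74.4 (without normoxia 3) with 1 library left out, 11.6 without CIH 3. In precursors it was 38.1 CPM, and 21.7 (without CIH 3) to 63.3 (without CIH 2).

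Oligodendrocyte precursors were not tested with edgeR, since 1 library had 17 nuclei, under the minimum of 20. Settings that left a class below 20 nuclei in a library were likewise not tested with edgeR or limma. For the sums of neuronal genes the minimum was 10 nuclei. With 3 libraries per group, the exact test cannot go below p = 0.1. In astrocytes 8 members had too few UMIs to be tested.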

Other observations

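Serotonergic neurons, defined by at least 2 of Tph2, Fev and Slc6a4, were few, at 80 nuclei with 6 to 26 per library, and were compared with all brainstem neurons only. Cntn1 averaged 1376 CPM in them (1133 to 1818 over libraries), against 648 CPM in all brainstem neurons, and was higher in 6 of 6 libraries. Cntn4 was lower, at 352 against 973 CPM, as was Cntnap4, at 82.8 against 289 CPM, and Cntnap5b, at 115 against 425 CPM, each in 6 of 6 libraries. Each of the other members was higher in some libraries and lower in others. These nuclei are also part of the brainstem neurons they are set against, and no test was made.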
